A study of Mus musculus with 9 samples.

Results

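The T-cell receptor alpha chains described here carry a TRAJ gene numbered 2 to 17, other than TRAJ9. Within the J cluster these genes are the farthest from the V genes, and they are called V-distal below. They were taken by J gene call from productive TRA contigs, and a chain was counted once per library for each combination of TRAV subgroup, TRAJ gene and junction nucleotides. The class held 4508 of 21997 distinct TRA chains in 8 libraries and 11 of the 43 TRAJ genes seen: TRAJ17, TRAJ16, TRAJ15, TRAJ13, TRAJ12, TRAJ11, TRAJ7, TRAJ6, TRAJ5, TRAJ4 and TRAJ2. No contig of the class named more than 1 TRAJ gene.

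Cells came from 3 kinds of lymph node, the deep cervical (dCLN), the superficial cervical (sCLN) and the inguinal (iLN), of female mice aged 10 to 11 months that were either 5xFAD or wild type (WT). 5xFAD mice are a transgenic model of Alzheimer's disease whose transgenes are driven in neurons by the Thy1 promoter, so lymph node cells are not the cells that the promoter targets. The WT mice are labelled by genotype only, with no strain. Each node and genotype gave 1 library from a droplet V(D)J assay, which made 6 libraries for the comparisons. The number of animals pooled in a library is not in the labels. A library with CD4 in its title, from dCLN, and a library that mixed 3 node types and both genotypes were set beside them.

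The developing thymocyte builds an alpha chain by joining a TRAV gene to a TRAJ gene. The first joins tend to use TRAV genes near the J cluster and TRAJ genes near the V genes. Until a cell is positively selected or dies, further joins on the same chromosome delete what lies between and move outward, to TRAV genes farther upstream and TRAJ genes farther downstream. V-distal TRAJ genes are therefore known as the last part of the cluster to be used. Both copies of the locus rearrange in the same cell, and the alpha chain is not strictly limited to 1 copy. The junction, which encodes the third complementarity-determining region, holds the end of the V gene, bases added during joining, and the start of the J gene.

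In the GRCm38 build, TRAJ17 to TRAJ2 spanned 16.1 kb of chromosome 14, at the end of a J cluster of 62.9 kb, and TRAJ2 ended 2.62 kb before the constant gene Trac. On the other side, the nearest V gene seen in these chains, TRAV21, began 326 kb before TRAJ17, and the farthest, TRAV1, began 1774 kb before it. TRAV22 and TRAV23, annotated between TRAV21 and the J cluster, had no chain in any table. The J genes differ in how many bases they bring to the junction. TRAJ2 has the longest junction part of the class, with 35 bases, and TRAJ13 the shortest, with 26 bases. Both are shown because they set the ends of the range of junction lengths given later, with the junction part in capitals, from the GENCODE annotation of GRCm38 (TRAJ2 at chr14:54217836-54217901 and TRAJ13 at chr14:54205741-54205797, plus strand).
TRAJ2: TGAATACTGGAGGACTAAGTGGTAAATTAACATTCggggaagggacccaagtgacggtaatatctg
TRAJ13: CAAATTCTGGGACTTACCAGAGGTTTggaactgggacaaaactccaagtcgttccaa

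The 6 libraries held 3458 to 8426 contigs and 1420 to 3526 distinct TRA chains, of which 280 to 700 were V-distal. The mixed library held 7751 contigs and the CD4-titled library used here 13049. The CD4-titled library labelled WT and its partner labelled 5xFAD shared 6825 barcodes and 12672 combinations of barcode and junction. The partner was therefore left out, and the CD4-titled library is given here without a genotype. In the other 35 pairs of libraries, at most 47 barcodes were shared and no barcode shared a junction. Intervals on single libraries are exact 95% binomial (Clopper-Pearson) intervals and cover counting error only. Where a count was 0, the share it allows was set at 3 chains over the number of chains counted. This limit lies somewhat below the upper end of the exact interval.

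TRAJ5, TRAJ11, TRAJ16 and TRAJ17 were each present in 2 germline forms, of which 5xFAD chains had 1 and WT chains both. The forms differed from each other downstream of the junction, so they could be read in chains with any junction. All 4 genes are shown in both forms, because the difference between genotypes rests on these bases. Capitals mark the differing bases, and both forms lie on the plus strand of chromosome 14 at chr14:54213777-54213838 (TRAJ5), chr14:54207139-54207197 (TRAJ11), chr14:54203134-54203194 (TRAJ16) and chr14:54201775-54201837 (TRAJ17).
TRAJ5 GRCm38: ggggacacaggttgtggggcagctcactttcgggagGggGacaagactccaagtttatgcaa
TRAJ5 alternative: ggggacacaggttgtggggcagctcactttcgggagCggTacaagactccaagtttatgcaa
TRAJ11 GRCm38: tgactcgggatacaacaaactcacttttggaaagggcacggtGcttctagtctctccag
TRAJ11 alternative: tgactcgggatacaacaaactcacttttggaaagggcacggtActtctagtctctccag
TRAJ16 GRCm38: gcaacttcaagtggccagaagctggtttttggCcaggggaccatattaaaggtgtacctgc
TRAJ16 alternative: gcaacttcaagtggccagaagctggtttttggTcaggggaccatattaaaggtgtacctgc
TRAJ17 GRCm38: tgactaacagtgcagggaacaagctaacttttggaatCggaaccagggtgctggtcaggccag
TRAJ17 alternative: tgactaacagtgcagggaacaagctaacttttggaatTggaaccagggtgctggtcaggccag

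Counted from 1 at the 5′ end of the J gene, with the GRCm38 base first, the differences were G37C and G40T in TRAJ5, G43A in TRAJ11, C33T in TRAJ16 and C38T in TRAJ17. G37C changed the encoded residue, whereas the other 4 were silent. The other 7 genes of the class had no base that met the rule for a second form, which was a base differing from GRCm38 in at least 20% of at least 8 chains of a library and which was set after the data were seen.

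Every chain of these 4 genes in the 5xFAD libraries had the alternative form. There were 189 of 189 such chains in dCLN, 152 of 152 in sCLN and 90 of 90 in iLN, and the lower limits of their intervals were 98.1%, 97.6% and 96.0%. A count of 0 GRCm38 forms allows a share of up to 1.59% in dCLN, 1.97% in sCLN and 3.33% in iLN. In the WT libraries the alternative form made up 43.7% of chains in dCLN (38 of 87, interval 33.1% to 54.7%), 55.4% in sCLN (36 of 65, 42.5% to 67.7%) and 48.8% in iLN (59 of 121, 39.6% to 58.0%). The 5xFAD libraries thus held 1 form and the WT libraries both, with no overlap in share between the genotypes. No chain of TRAJ5 carried only 1 of its 2 differences. No test was made on these shares, because the sites were chosen from the same chains.

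The CD4-titled library and the mixed library stood apart from both genotypes. The alternative form made up 75.8% of the 4 genes' chains in the CD4-titled library (282 of 372, interval 71.1% to 80.1%) and 5.38% in the mixed library (12 of 223, 2.81% to 9.21%). The labels give the mixed library both genotypes, while its share of the alternative form lay below that of every library of either genotype.

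**Figure D1:**
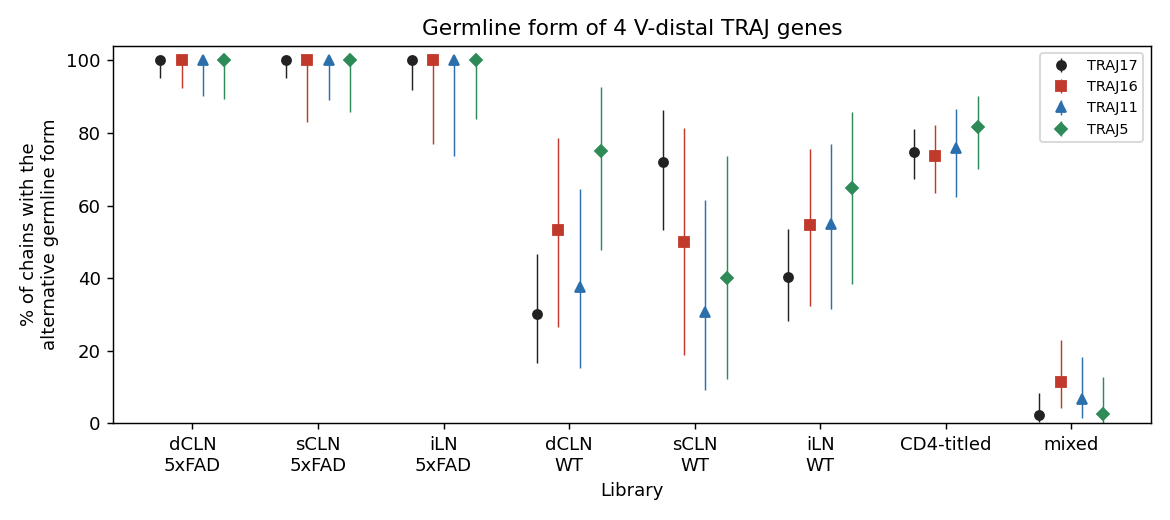
Share of chains of TRAJ17, TRAJ16, TRAJ11 and TRAJ5 with the alternative germline form (vertical axis, percent) in each of 8 libraries (horizontal axis); bars are 95% binomial intervals. All 4 genes stood at 100% in the 3 5xFAD libraries, while the pooled share was 43.7% to 55.4% in the 3 WT libraries.

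The V region of the same chains went with the J form. A V region was scored by whether it matched an annotated GRCm38 V transcript at every base up to the junction. Among WT chains with the alternative J form, 8 of 38 in dCLN, 9 of 36 in sCLN and 14 of 59 in iLN matched. Among WT chains with the GRCm38 J form, 49 of 49, 28 of 29 and 60 of 62 matched in the same nodes. In the 5xFAD libraries, where only the alternative J form was seen, 16.4%, 20.4% and 32.2% matched in dCLN, sCLN and iLN. Within WT libraries, J genes of the GRCm38 form were thus nearly always joined to a V region of GRCm38 sequence. In the CD4-titled library 54 of 282 chains with the alternative form matched, against 89 of 90 with the GRCm38 form.

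The difference in V sequence was one of all TRA chains, the V-distal ones included. Over all TRA chains, V regions matched GRCm38 in 13.3%, 13% and 15% in the dCLN, sCLN and iLN libraries of 5xFAD mice, against 55%, 54.4% and 55.6% in those of WT mice. They matched GRCm38 in 18.7%, 19.5% and 24.3% of V-distal chains in the dCLN, sCLN and iLN libraries of 5xFAD mice, against 63.9%, 57.9% and 60.2% in those of WT mice. The part of these germline differences in the genotype comparisons below was not tested.

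The share of V-distal TRAJ genes among all distinct TRA chains overlapped between genotypes. It was 19.9% in the dCLN, 17.6% in the sCLN and 19.4% in the iLN of 5xFAD mice, against 19.2%, 21.4% and 20.1% in the same nodes of WT mice. The 5xFAD share was higher in dCLN and lower in the other nodes. It averaged 19.0% ± 1.23 in 5xFAD and 20.2% ± 1.11 in WT libraries (SD, n = 3 each), a mean difference of -1.28 percentage points (exact two-sided sign-flip permutation test over 3 nodes, p = 0.75; the smallest p this design allows is 0.25). Without sCLN the difference was 0.0059 points. The node means over both genotypes were 19.5% in dCLN, 19.5% in sCLN and 19.8% in iLN. The CD4-titled library had 22.5% (interval 21.4% to 23.6%) and the mixed library 21.2% (19.8% to 22.6%).

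Use of the 11 genes was uneven and did not follow their order along the chromosome. Over the 6 libraries TRAJ15 was the most used, with 3.15% ± 0.36 of distinct chains (SD, n = 6), and ranked 8th of the 43 TRAJ genes. TRAJ12 followed with 3.06% ± 0.51 and ranked 10th. TRAJ17 had 2.59% ± 0.36, TRAJ13 2.46% ± 0.50, TRAJ7 1.96% ± 0.37, TRAJ6 1.57% ± 0.32 and TRAJ4 1.18% ± 0.34. TRAJ11, TRAJ5 and TRAJ16 lay together at 0.98% ± 0.12, 0.96% ± 0.24 and 0.96% ± 0.24. TRAJ2, the last gene before the constant region, had 0.72% ± 0.17 and ranked 41st. Each gene in this order lay less than its own SD above the next, apart from TRAJ13, TRAJ7 and TRAJ6. The steps from TRAJ12 to TRAJ17, TRAJ4 to TRAJ11 and TRAJ16 to TRAJ2 were larger than the SD of the lower gene. Neighbours were not tested against each other, so their order is a description. In the annotation TRAJ3 lies within the class but had no contig, as had the pseudogenes TRAJ8 and TRAJ14.

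No gene of the class passed the test between genotypes, and neither did any other feature. The test was a quasi-likelihood fit in edgeR with terms for genotype and node, over 94 features (TRAJ and TRBJ genes, TRBV genes and TRAV subgroups), with Benjamini-Hochberg adjustment. It called 0% of features at an adjusted p under 0.05, whereas DESeq2 called 2, neither of them V-distal. At an unadjusted p under 0.05 it called 15 features, or 16% of all, among them 2 of the 11 V-distal genes, TRAJ12 and TRAJ6. Of the class, 6 of 11 genes had a negative fitted log2 fold change (median -0.04), against 45.7% of all features (median 0.01).

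TRAJ12 had 2.84%, 2.56% and 2.56% of chains in the dCLN, sCLN and iLN of 5xFAD mice, against 3.50%, 3.80% and 3.12% in the same nodes of WT mice. The 3 WT libraries all lay above the 3 5xFAD libraries. The fitted log2 fold change was -0.39 (SE 0.12, adjusted p = 0.26 by edgeR), and the CD4-titled and mixed libraries had 3.42% and 3.42%. TRAJ6 had 1.36%, 1.38% and 1.25% in the same 3 nodes of 5xFAD mice, against 1.78%, 2.11% and 1.51% in WT mice. Here too every WT library lay above every 5xFAD library, with a fitted log2 fold change of -0.43 (SE 0.16, adjusted p = 0.31 by edgeR). These were the 2 genes of 11 with no overlap between genotypes, while 27.7% of all 94 features had none. Their direction stayed negative in all 16 settings tried, with log2 fold changes of -0.43 to -0.29 for TRAJ12 and -0.51 to -0.34 for TRAJ6, and their lowest adjusted p was 0.18 and 0.28. The direction of the other 9 genes changed in 2 or 3 of those settings. The settings are not separate checks. Leaving out either library of a node gave nearly the same fit, for TRAJ12 -0.4324 without the 5xFAD and -0.4327 without the WT dCLN library. Leaving out contigs that name several TRAJ genes changed nothing, since no contig of the class did.

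The other 9 genes overlapped between genotypes. Their fitted log2 fold changes ran between -0.21 for TRAJ7 and 0.24 for TRAJ5, both with an adjusted p of 0.73. Within single nodes, 30 of 33 log2 ratios of the 11 genes had 95% counting intervals that included 0, so 3 did not, while 20.9% of the ratios over all features did not. In sCLN, TRAJ7 made up 1.59% of 5xFAD and 2.61% of WT chains, a log2 ratio of -0.72 (-1.33 to -0.10). TRAJ12 had a log2 ratio of -0.58 (-1.07 to -0.08) in the same node. In dCLN, TRAJ13 made up 3.23% of 5xFAD and 1.92% of WT chains, a log2 ratio of 0.73 (0.15 to 1.32), whereas in sCLN its ratio was -0.50 (-1.07 to 0.07). These single-node ratios have no replicate check.

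**Figure D2:**
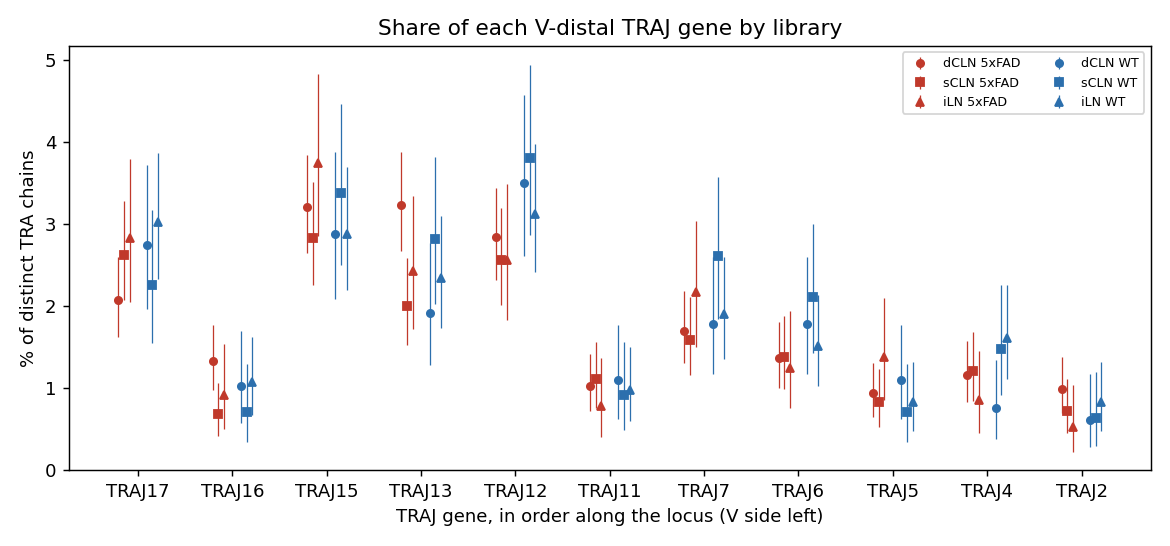
Share of distinct TRA chains (vertical axis, percent) with each V-distal TRAJ gene, from TRAJ17 on the V side to TRAJ2 (horizontal axis), in 3 5xFAD libraries (red, left of each pair) and 3 WT libraries (blue); bars are 95% binomial intervals. TRAJ12 and TRAJ6 are the genes whose 5xFAD points all lie below their WT points, and neither passed the adjusted test.

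No V-distal gene passed the test between node types. That test, in the same edgeR fit, called 0% of the 94 features after adjustment, and 0% at an unadjusted p under 0.05, and DESeq2 also called 0.

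V-distal TRAJ genes differed from the other TRAJ genes in the V genes they were joined to. TRAV subgroups were tested within libraries by edgeR, with the library as a block. Of 19 subgroups, 4 passed an adjusted p of 0.05 (21.1%): 1 was higher with V-distal TRAJ genes (5.26%) and 3 were lower (15.8%). Of the subgroups tested, TRAV17, TRAV19 and TRAV21 lie nearest to the J cluster, and TRAV1 and TRAV2 lie farthest from it. Most other subgroups have copies spread over the duplicated middle of the locus.

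TRAV21 and TRAV19 were nearly absent from V-distal chains. TRAV21 was found in 2 of 2500 V-distal chains against 229 of 10371 chains of other TRAJ genes in the 6 libraries, or 0.057% ± 0.089 against 2.25% ± 0.49 per library (SD, n = 6 each). Its log2 fold change was -4.61 (SE 0.58, adjusted p = 6.0e-11 by edgeR), and it was lower in 6 of 6 libraries. TRAV19 was found in 1 V-distal chain and 99 other chains (log2 fold change -4.23, SE 0.80, adjusted p = 3.5e-06 by edgeR). TRAV17 was found in 2 V-distal chains and 30 others, and did not pass (log2 fold change -1.69, SE 0.87, adjusted p = 0.14 by edgeR). With so few chains the size of these changes is known only within wide limits. As a ratio of pooled shares, TRAV21 stood at 0.036 (95% counting interval 0.0044 to 0.132) and TRAV19 at 0.042 (0.0011 to 0.239), and the only V-distal TRAV19 chain was in the 5xFAD dCLN library.

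As a single value per library, TRAV17 to TRAV21 made up 0.43%, 0.39% and 0% of V-distal chains in the dCLN, sCLN and iLN of 5xFAD mice, and 0% in all 3 nodes of WT mice. A count of 0 allows up to 1.01% in the 5xFAD iLN library and 1.07%, 0.99% and 0.73% in the WT libraries of dCLN, sCLN and iLN. In chains of other TRAJ genes they made up 3.47%, 3.14% and 3.92% in 5xFAD and 3.48%, 3.32% and 3.66% in WT mice. The 2 sets of values did not overlap. The difference was -3.36 ± 0.42 percentage points (SD, n = 6; exact two-sided sign-flip permutation test, p = 0.031, the smallest that 6 libraries can give; adjusted p = 0.052 over 5 such tests). The 5 V-distal chains with these V genes used TRAJ17, TRAJ13, TRAJ7, TRAJ6 and TRAJ2, 1 chain each. A low share of these V genes was not particular to the class, which had 0.14% ± 0.21. It was 0.14% ± 0.35 for TRAJ9 and 0.54% ± 0.20 for TRAJ18 to TRAJ30. TRAJ31 to TRAJ49 had 2.58% ± 0.59 and TRAJ50 and above 12.7% ± 2.11 (SD, n = 6 each).

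TRAV7 was the subgroup that passed the test in the other direction. It made up 18.6%, 17.7% and 27.0% of V-distal chains in the dCLN, sCLN and iLN of 5xFAD mice and 18.6%, 19.7% and 16.5% in WT mice. Among other TRAJ genes it made up 12.3%, 10.9% and 13.4% in 5xFAD and 12.7%, 13.6% and 12% in WT mice. It was higher with V-distal genes in 6 of 6 libraries (log2 fold change 0.64, SE 0.10, adjusted p = 1.6e-08 by edgeR). Every gene of the class had a higher pooled TRAV7 share than the 12.2% of other TRAJ genes, from 15.6% (TRAJ16, interval 9.81% to 23.1%) to 22.4% (TRAJ17, 18% to 27.3%). The intervals of TRAJ16, TRAJ5, TRAJ2 and TRAJ7 included 12.2%.

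TRAV13 went the other way, at 9.88% ± 1.68 of V-distal chains against 15.4% ± 2.29 of other chains (SD, n = 6 each), and was lower in 6 of 6 libraries (log2 fold change -0.61, SE 0.11, adjusted p = 1.5e-06 by edgeR). Its share among the V-distal genes ran from 4.96% in TRAJ5 (interval 1.84% to 10.5%) to 14.3% in TRAJ4 (9.17% to 20.8%). TRAV16 had a log2 fold change of -0.44 (adjusted p = 0.055 by edgeR) and TRAV4 one of 0.35 (adjusted p = 0.058 by edgeR), so neither passed.

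With TRAV named by gene in place of subgroup, 28 of 78 genes passed, of which 16 were higher and 12 lower with V-distal genes, and subgroups split. Within TRAV13, TRAV13-4/DV7 had a log2 fold change of -2.19 and TRAV13D-1 one of 0.68 (adjusted p = 2.0e-14 and 0.018 by edgeR). Within TRAV16, the gene TRAV16 had one of -2.27 and TRAV16D/DV11 one of 0.57 (adjusted p = 1.7e-10 and 0.039 by edgeR). Within TRAV7, TRAV7-6 and TRAV7N-4 were lower, at -1.70 and -1.98, while 6 other genes of the subgroup were higher. These V genes were named after their values were seen, and near-identical copies can be confused in the calls.

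The farthest V genes were not enriched. TRAV1 made up 1.40% ± 0.61 of V-distal chains against 1.41% ± 0.37 of the others (log2 fold change 0.02, SE 0.31, adjusted p = 0.94 by edgeR). TRAV2 was found in 3 V-distal chains and 18 others (log2 fold change -0.49, SE 0.86, adjusted p = 0.76 by edgeR). TRAV1 and TRAV2 together made up 1.49% ± 0.67 against 1.58% ± 0.28, a difference of -0.09 points that was positive in 3 libraries and negative in 3 (exact sign-flip permutation test, p = 0.78, adjusted p = 0.78). Against TRAJ genes numbered 50 and above alone, the difference was 1.40 points (exact sign-flip permutation test, adjusted p = 0.062). The share did not rise steadily along the J cluster. It was 0.09% ± 0.22 for TRAJ50 and above, 1.51% ± 0.68 for TRAJ31 to TRAJ49 and 2.67% ± 0.69 for TRAJ18 to TRAJ30, the last above that of the V-distal genes (SD, n = 6 each). TRAJ31 to TRAJ49 includes TRAJ33, which TRAV1 joins in the chain of mucosal-associated invariant T cells. The part of that chain in the TRAV1 shares of other TRAJ genes was not tested.

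**Figure D3:**
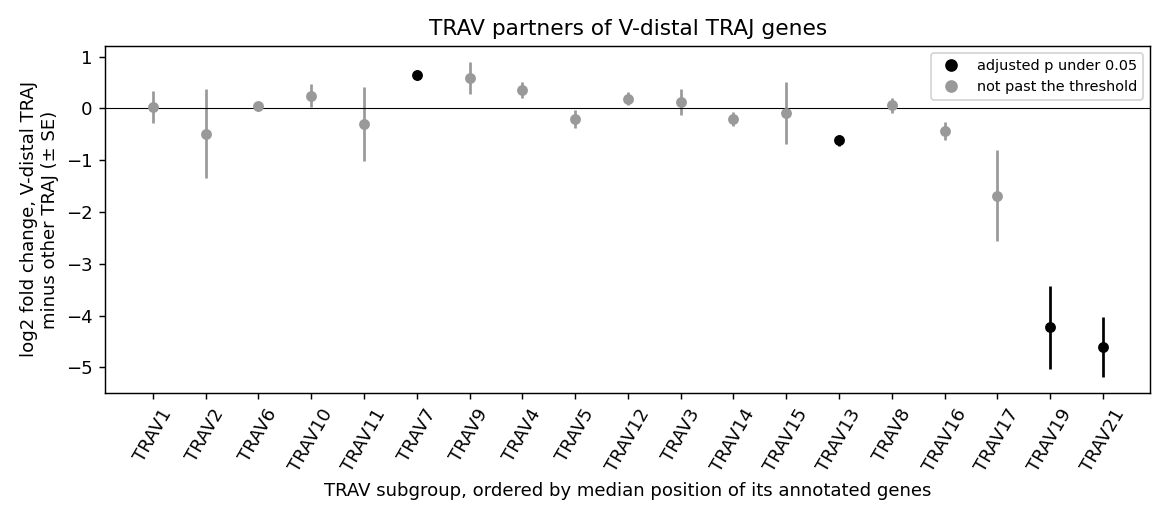
Log2 fold change of each TRAV subgroup between V-distal and other TRAJ chains (vertical axis, edgeR estimate with SE bars), with subgroups ordered from the far upstream end of the locus to the J cluster (horizontal axis); black points passed an adjusted p of 0.05. TRAV7 lies above 0 at 0.64, and TRAV13, TRAV19 and TRAV21 lie below it at -0.61, -4.23 and -4.61.

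Chains whose V region matched exactly 1 annotated GRCm38 V gene could be given a place on the chromosome. Such chains were used from the 3 WT, the CD4-titled and the mixed library, since few V regions of 5xFAD libraries matched. They cover 20.9% to 49% of V-distal chains per library, and copies with identical sequence cannot be placed. Coverage differed between J groups, most in the mixed library. There it was 49% for V-distal genes, 58.3% for TRAJ18 to TRAJ30, 71.7% for TRAJ31 to TRAJ49 and 81.3% for TRAJ50 and above. In the CD4-titled library it was 20.9% for V-distal genes and 20.8% for TRAJ50 and above. Over these 5 libraries, the median distance between V and J gene was 1096 kb ± 207 for V-distal chains (SD, n = 5; range 867 to 1433 kb). It was 820 kb ± 48.3 for TRAJ18 to TRAJ30, 625 kb ± 31 for TRAJ31 to TRAJ49 and 468 kb ± 12.9 for TRAJ50 and above. The V-distal value was the highest of the 4 groups in each library. The positions of the J genes themselves differ by at most the 62.9 kb length of the cluster.

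The place of the V gene itself, which does not depend on that length, showed the same order. Of V-distal chains, 13.4% ± 4.01 used a V gene in the stretch nearest to the J cluster, when the V region was cut into 4 equal stretches (range 10.0% to 18.4%). This share was 31.8% ± 5.27 for TRAJ18 to TRAJ30, 58.4% ± 5.28 for TRAJ31 to TRAJ49 and 84.1% ± 4.62 for TRAJ50 and above. Among the V-distal genes the pooled share was 6.67% for TRAJ2 (2 of 30 chains, interval 0.82% to 22.1%) and 27.3% for TRAJ5 (12 of 44, 15% to 42.8%), and the other 9 lay between.

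Read from the V side, the use of V-distal J genes was lowest in the stretch of the V region nearest to the J cluster. Among 43 V genes with at least 50 placed chains, those in the farthest of the 4 stretches had 25.5% to 36.7% of their chains joined to a V-distal J gene, and those in the next 29.1% to 42.9%. In the third stretch the range was 15.6% to 42.9%, and in the nearest 0% to 13.4%. The medians were 29.1%, 36.4%, 26.8% and 3.89%, from the farthest stretch to the nearest. TRAV1 and TRAV2, the farthest V genes, were not among the 43. In the 6 libraries TRAV1 was found in 36 V-distal and 147 other chains. Single genes show the lower use nearer to the J cluster. Trav7n-6, 877 kb before TRAJ17, had 36 of 84 chains (42.9%, interval 32.1% to 54.1%) with a V-distal gene. Trav10, at 696 kb, had 20 of 128 (15.6%, 9.81% to 23.1%), and Trav5-4, at 498 kb, had 2 of 105 (1.90%, 0.23% to 6.71%). Trav16, at 459 kb, had 0 of 82, which allows a share of up to 3.66%, and Trav19, at 357 kb, had 0 of 73, which allows up to 4.11%. These V genes were picked after their values were seen, and the relation is a description over genes that share libraries.

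**Figure D4:**
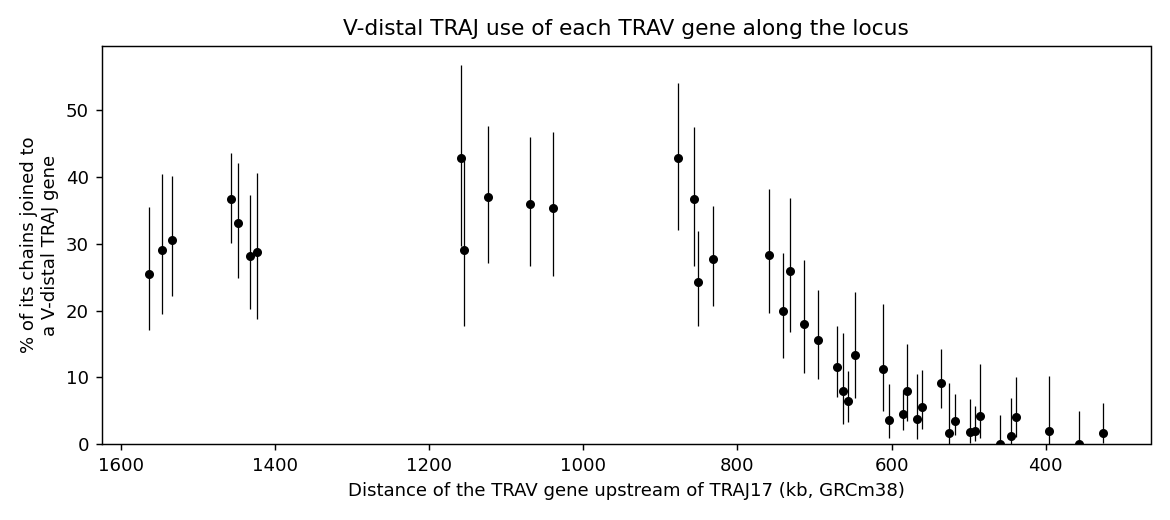
Percent of each TRAV gene's placed chains that carried a V-distal TRAJ gene (vertical axis, with 95% binomial intervals) against the gene's distance upstream of TRAJ17 (horizontal axis, kb, far upstream on the left), pooled over 5 libraries; each of the 43 points is 1 TRAV gene. Points lie between 15.6% and 42.9% in the 3 stretches of the V region farther from the J cluster, and between 0% and 13.4% in the nearest of the 4 equal stretches.

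Among genes outside the class, TRAJ21, TRAJ9 and TRAJ30 had the TRAV profile most like it. Their total variation distances to the class, the summed share difference that would have to be moved to make the profiles equal, were 0.068, 0.093 and 0.099, pooled over the 6 libraries. The TRAJ genes whose share went most with the class share over the 8 libraries were TRAJ37 (Pearson r = 0.74), TRAJ27 (r = 0.68) and TRAJ9 (r = 0.40), a description over 8 libraries in which all shares are parts of the same total.

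The number of bases between V and J that belong to neither gene, called added bases below, was lower on average in V-distal chains in 6 of 6 libraries. The mean was 2.40, 2.41 and 2.40 in the dCLN, sCLN and iLN of 5xFAD mice and 2.37, 2.10 and 2.39 in WT mice. In chains of other TRAJ genes it was 2.87, 2.93 and 2.78 in 5xFAD and 2.63, 2.83 and 2.75 in WT mice. Every V-distal value lay below every value of the others. The difference was -0.45 ± 0.16 nucleotides (SD, n = 6; exact two-sided sign-flip permutation test, p = 0.031; adjusted p = 0.052), so it was at the smallest p of the design and just missed the threshold after adjustment. With the CD4-titled and mixed libraries added it was -0.42 over 8 libraries (exact sign-flip permutation test, adjusted p = 0.013). TRAJ9, which lies between TRAJ11 and TRAJ7, was counted with the other TRAJ genes. Its mean was 2.74 ± 0.32 added bases, against 2.34 ± 0.12 for the class and 2.80 ± 0.10 for other TRAJ genes (SD, n = 6 each).

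Within the class, TRAJ16 and TRAJ5 had the fewest added bases, with pooled means of 1.77 and 1.85 nucleotides, and TRAJ4 the most, with 2.79. TRAJ5 also kept its whole 5′ end most often, in 34.7% of chains, beside 33.8% for TRAJ13 and 31.8% for TRAJ11. TRAJ12 and TRAJ4 kept theirs in 9.69% and 9.74%.

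Mean junction length in V-distal and other chains differed by less than the length of a codon. It was 40.2 ± 0.24 against 40.5 ± 0.19 nucleotides (SD, n = 6 each), a difference of -0.28 ± 0.20 that was negative in 5 of 6 libraries (exact two-sided sign-flip permutation test, p = 0.062, adjusted p = 0.078). The exception was the WT dCLN library. Against TRAJ50 and above alone, whose junctions averaged 43.6 nucleotides, the difference was -3.34 (exact sign-flip permutation test, adjusted p = 0.039). The other J groups were not longer in this way. Junctions averaged 40.3 ± 0.20 nucleotides for TRAJ18 to TRAJ30 and 39.8 ± 0.28 for TRAJ31 to TRAJ49 (SD, n = 6 each). The latter mean lay below that of the V-distal genes. Between genotypes, V-distal junctions averaged 40.3 ± 0.29 in 5xFAD and 40.2 ± 0.22 in WT libraries (SD, n = 3 each).

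The genes differed far more among themselves than the class did from the rest. Pooled over 6 libraries, mean junction length ran from 37.7 nucleotides in TRAJ13 to 45.8 in TRAJ2, the genes with 26 and 35 germline junction bases shown above. TRAJ12, with 27 germline bases, averaged 39.2, and TRAJ17, with 32, averaged 41.3. TRAJ17 and TRAJ4, also with 32, lost the most bases from the J end, 4.53 and 4.18 on average, whereas TRAJ11 lost 1.67.

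Among barcodes with 2 productive alpha chains, the second chain was V-distal more often where the first was V-distal than where it was not, in 6 of 6 libraries. In the 6 libraries, 732 barcodes had exactly 2 distinct productive TRA chains. In 68 of them both chains were V-distal, and in 168 only 1 was. For the shares below, each chain of a barcode was taken as the first in turn. A barcode with 2 V-distal chains was therefore counted 2 times, so the shares are of chains and not of barcodes. In the 5xFAD dCLN library, 21 such barcodes gave 42 of 105 chains. When 1 chain was V-distal, the other was V-distal in 40.0%, 44.4% and 62.5% of cases in the dCLN, sCLN and iLN of 5xFAD mice and in 46.2%, 60.6% and 37.2% in WT mice. When it was not, the other was V-distal in 18.8%, 12.8% and 10.0% in 5xFAD and 12.7%, 12.1% and 13.7% in WT mice. The 2 sets of values did not overlap. The difference was 35.1 ± 12.8 percentage points (SD, n = 6), positive in 6 of 6 libraries (exact two-sided sign-flip permutation test, p = 0.031; adjusted p = 0.052).

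Of the 68 barcodes with 2 V-distal chains, 3 used the same J gene on both, and none the same V subgroup and J gene. V-distal genes were paired with a TRAJ gene numbered 50 or above in 14 barcodes. The CD4-titled and mixed libraries had 50% against 15% and 41.5% against 18.4%. A barcode can also hold 2 cells, and the part of such doublets in these shares was not tested. The 5xFAD iLN library had only 38 barcodes of this kind and the 5xFAD dCLN library 220.

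**Figure D5:**
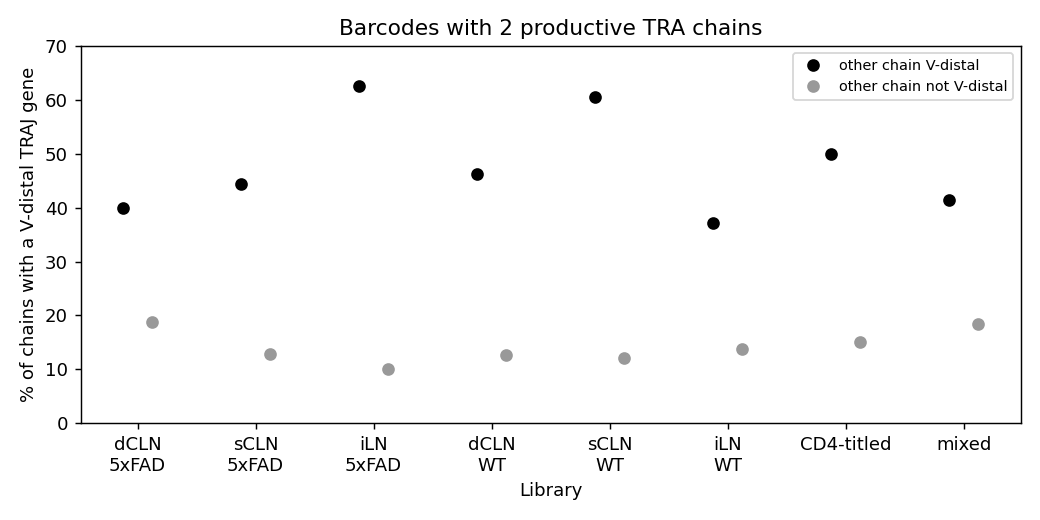
Percent of chains with a V-distal TRAJ gene (vertical axis) in barcodes with 2 productive TRA chains, for chains whose partner chain was V-distal (black, left) or not (grey), in each of 8 libraries (horizontal axis). Black points run from 37.2% to 62.5% and grey points from 10.0% to 18.8%.

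V-distal chains were rarely repeated, as were chains of other TRAJ genes. The most frequent V-distal chain of a library was found in 2 to 4 cells. Of the V-distal chains of a library, 2.70% to 7.14% were found in more than 1 cell. Among other TRAJ genes the most frequent chain was found in 3 to 11 cells, and 2.37% to 5.51% were found in more than 1 cell. Of 4163 V-distal chains over the 8 libraries, 273 (6.56%) were found in at least 2 libraries and 50 in at least 3, beside 5.94% of 16262 other chains in at least 2. Shared V-distal chains had fewer added bases than all V-distal chains, with a mean of 1.02 against 2.53, and 48% against 16.7% had none. TRAJ12, TRAJ15 and TRAJ13 gave 69, 49 and 42 of the 273. These were also much used genes, with 694, 718 and 528 of the 4508 V-distal chains when chains are counted once per library.

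The most widely shared V-distal junctions are shown because the same nucleotides were found in 6 of 8 libraries. Both joined a V gene to the whole 26-base junction part of TRAJ13 (in capitals), with 1 added base after TRAV14 and none after TRAV5.
TRAV14-TRAJ13: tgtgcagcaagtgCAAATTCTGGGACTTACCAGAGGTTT
TRAV5-TRAJ13: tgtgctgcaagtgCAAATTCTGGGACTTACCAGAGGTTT
Each was found in libraries of both genotypes. Whether libraries share animals is not in the labels.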

How the data were processed

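Each sample had 1 deposited table of assembled TCR contigs, 1 per line. The submitters' processing notes list Cell Ranger 6.0.1, Seurat 4.1.0 and mm10 without saying what each was used for. V and J genes were called with IgBLAST, per the file headers. The UMI count per contig is a whole-number count without normalization, per the file headers. V and J identity are a deposited fraction of matching bases. Junction length and added bases are deposited lengths in nucleotides. All productive contigs were used, and 9 tables were read, of which 8 were analysed.

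Distinct chains per feature were compared in R 4.3.3 by the quasi-likelihood test of edgeR 4.0.16, with the number of chains per library as offset, over features with at least 10 chains in the 6 libraries. The threshold was an adjusted p of 0.05. With 1 library per node and genotype, the spread came from how genotype differences vary over nodes, so the p-values carry no information on how animals vary. The fits were tested on simulated counts. Single values per library were compared by exact sign-flip permutation (scipy 1.17.1), adjusted over 5 tests. Ratios within a node used a pseudocount of 0.5. Alternatives covered DESeq2 1.42.0, scaling, the filter, the counted unit, at least 2 UMIs, V naming and leaving out each library.

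The class, the lists and the comparisons were chosen with earlier results of these data known. All V-distal genes were named, with the 3 nearest TRAJ genes by each likeness and every TRAV subgroup past the threshold, beside TRAV1, TRAV2, TRAV17, TRAV19 and TRAV21. TRAV16 and TRAV4, the J germline forms, the placed V genes and shared chains were added after the data were seen. J and V reference sequences and positions came from the GENCODE vM21 annotation of GRCm38. Of the mixed library's nonproductive contigs, 1 carried a V-distal J gene. Those contigs were not used.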

Additional observations from a re-analysis of the deposited data

How the results depend on the processing

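No V-distal gene passed the genotype or node test in any setting tried. The number of features called between genotypes was 0, and became 16 with TRAV named by gene, 2 with DESeq2, 1 (TRAJ22) with TRAJ genes alone, 2 with no node term and 0 to 5 when 1 library was left out, with 5 without either iLN library. The node count was 0 to 3 in the last setting, with 3 without the WT iLN library. The TRAV partner count of 4 became 28 of 78 by gene (16 higher, 12 lower) and 4 to 7 when 1 library was left out. The V-distal share difference of -1.28 points ran from -2.25 to 0.0059 when 1 node was left out. That of TRAV1 and TRAV2, -0.09 points, reversed to 0.085 with paired barcodes (1 TRB and 1 or 2 TRA chains) and 1.40 against TRAJ50 and above, and ran from -0.24 to 0.11 when 1 library was left out. The other 4 within-library differences kept their direction in every setting run for them, and the second-chain difference was not run with cells or with paired barcodes. They passed an adjusted p of 0.05 in these: with paired barcodes, junction length -0.37, added bases -0.47 and J-proximal V share -3.40; over 8 libraries, -0.26, -0.42, -3.56 and second chain 33.6; against TRAJ50 and above, -3.34, -0.38, -12.6 and 43.2. With 1 library left out, 5 libraries cannot give a p below 0.0625. The second-chain difference was 35.0 points without barcodes whose chains share V and J, a setting added after the data were seen. The causes of these changes were not tested. The labels give the groups no replicate numbers, so animals could not be paired. Comparisons were instead paired by node between genotypes, and by library between V-distal and other chains. Libraries of 280 to 700 V-distal chains limit the precision for single genes.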
